A study of Mus musculus with 12 samples.

Results

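The 10 genes described here are the transcription factors Hlf, Meis1, Hoxa9, Gata2, Lmo2, Erg, Sox4 and Myb and the receptor tyrosine kinases Kit and Flt3, which are best known from blood stem and progenitor cells. They were chosen by symbol, not by their values, and all 10 have a row in both deposited tables, which list 23973 genes for marrow B cells and 24015 for splenic B cells. The levels were read in 12 RNA-seq libraries of primary mouse B cells in 4 groups of 3. WT and T58A libraries came from marrow B cells kept with the cytokine IL7 for 48 hours. WT and T58A libraries also came from splenic B cells kept with lipopolysaccharide (LPS), a bacterial cell wall product that activates mature B cells, for 48 hours. T58A denotes mice with a point mutation in MYC, the growth-promoting transcription factor, and the series design names the animals as littermates, the marrow cells as immature and the splenic cells as mature. Every T58A library therefore stands against a WT library of the same culture. Whether the mice carried 1 or more copies of the mutation, their age and their strain are not given in the sources used here.

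HLF, MEIS1, HOXA9, GATA2 and ERG belong to the network that keeps blood stem cells undifferentiated, and LMO2 is a bridging protein that joins GATA, TAL1 and E proteins into a complex on DNA. KIT, the receptor of stem cell factor, and FLT3, the receptor of FLT3 ligand, carry growth and survival signals in early progenitors. In the B lineage KIT is found on pro-B cells, FLT3 is switched off when PAX5 commits cells to the lineage, SOX4 and MYB are required in pro-B cells, and ERG takes part in pro-B cell development. KIT, SOX4 and MYB are known to fall as B cells mature.

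MYC binds DNA with MAX at the letters CACGTG, called the canonical E-box, and at variants such as CACGCG, so the start sites of the members were searched for both, on both strands (CACGTG reads the same on either strand, and CACGCG reads CGCGTG on the other). The windows ran from 250 bases before to 50 bases after each start site in RefSeq on GRCm38.p6, and 9 of the 10 members matched an entry, with 13 windows in all. Of all 32851 windows of this length, 7.15% held CACGTG and 9.27% held CACGCG. Among the 9 members searched, which leave out Lmo2, the canonical letters stood in the Flt3 window only, and the variant in those of Hlf, Sox4 and Myb. The 3 windows below are shown because they belong to members with enough reads to be tested, each as 100 bases of the gene's own strand with the matching letters in capitals.
Flt3, chr5:147400460-147400559, minus strand: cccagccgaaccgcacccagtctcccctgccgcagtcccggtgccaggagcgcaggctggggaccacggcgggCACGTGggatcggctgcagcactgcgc
Sox4, chr13:28953780-28953879, minus strand: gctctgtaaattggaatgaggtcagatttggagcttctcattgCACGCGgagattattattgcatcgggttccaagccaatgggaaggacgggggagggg
Myb, chr10:21160960-21161059, minus strand: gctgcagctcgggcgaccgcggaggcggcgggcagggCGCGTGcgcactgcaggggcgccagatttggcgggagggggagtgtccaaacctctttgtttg
The Flt3 letters begin at base 4 of the transcript, those of Sox4 start 137 bases and those of Myb 38 bases upstream of the start site. The GATA letters AGATAA stood in 1 of the 3 Erg windows and in 11.2% of all windows. A match describes letters in this window and not a bound site.

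Between 8486753 and 10201113 reads were assigned to genes in the IL7 libraries and between 5110746 and 9332410 in the LPS libraries. All values below called normalised reads are reads divided by 1 size factor per library, as deposited, and 3 reads, the most that a count of 0 allows, correspond to between 2.15 and 4.12 of them. This limit covers counting error only. WT 1 and WT 2 of both cultures came from females and the other libraries from males by their Xist and Y-linked reads, so sex moved with genotype in IL7 pairs 1 and 2, and only pair 3 joined 2 male libraries. IL7 WT 2 stood apart, since this female library also held Y-linked reads (31.7 of Kdm5d against 466 in the male WT 3) and 611 normalised reads of the plasma cell gene Igj against 89.1 and 105 in the other WT libraries. Myc itself was at 2010 to 3858 normalised reads in IL7 WT and 3038 to 4827 in IL7 T58A libraries, and its level does not check a point mutation. The 8 B lineage markers summed to 7427 to 8385 RPM (assigned reads scaled to library size, not to gene length) in the LPS libraries. In IL7 they summed to 6321, 4487 and 4013 RPM in WT 1, 2 and 3 and to 4201, 3630 and 3292 in T58A 1, 2 and 3, lower in 3 of 3 pairs. With the pair as a block limma called 5 of the 8 lower, where 6.31% of all 11604 genes tested were lower. The median log2 difference of the 8 was -0.41, against -0.01 over all genes tested. In the IL7 WT and T58A libraries the 12 myeloid markers summed to 162 to 291 and 105 to 163 RPM and the 10 stromal and endothelial markers to 79.2 to 133 and 55.2 to 89.2. The stromal and endothelial sum was mostly Pecam1, at 694 to 1200 normalised reads in WT and 504 to 808 in T58A. The largest myeloid marker was Ctss, at 858 to 1350 in WT and 573 to 749 in T58A. The erythroid and T cell marker sums of these 6 libraries were mostly Car2 (1315 to 2420 normalised reads in WT and 2097 to 2864 in T58A) and Thy1 (386 to 946 and 766 to 1101). There the haemoglobin genes Hba-a1, Hbb-bs and Hbb-bt were at 0, and Cd3e, Cd3d, Cd3g, Cd4 and Cd8a were at 9.30 normalised reads or fewer in each library. The part of these cells in the values below was not tested.

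Per length, the 10 genes spanned the range from abundant to absent, and the order differed between the cultures. RPKM, assigned reads per kilobase of exon scaled to library size, lets genes be compared with each other. In the IL7 WT libraries Myb stood highest, at 75.3 ± 6.08 RPKM (SD, n = 3), followed by Erg at 59.6 ± 15.7, Sox4 at 32.8 ± 4.97, Lmo2 at 12.9 ± 5.26 and Kit at 6.01 ± 1.94. The ranges of Myb and Erg overlapped, and those of Erg, Sox4, Lmo2 and Kit did not. Flt3 at 0.783 ± 0.935 and Meis1 at 0.623 ± 0.242 overlapped each other, and Gata2 at 0.102 ± 0.0837, Hoxa9 at 0.0597 ± 0.0858 and Hlf at 0.0314 ± 0.0149 overlapped at the bottom. In the LPS WT libraries Lmo2 led at 87.6 ± 12.5 in the same unit, then Flt3 at 23.2 ± 7.84, Myb at 4.31 ± 0.805 and Sox4 at 0.727 ± 0.388, with no overlap between these neighbours. Erg at 0.187 ± 0.0183, Meis1 at 0.0878 ± 0.0332 and Kit at 0.0695 ± 0.0569 followed, and of the last pair the ranges overlapped. Gata2, Hlf and Hoxa9 were listed with 1, 1 and 0 reads over all 3 LPS WT libraries.

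**Figure D1:**
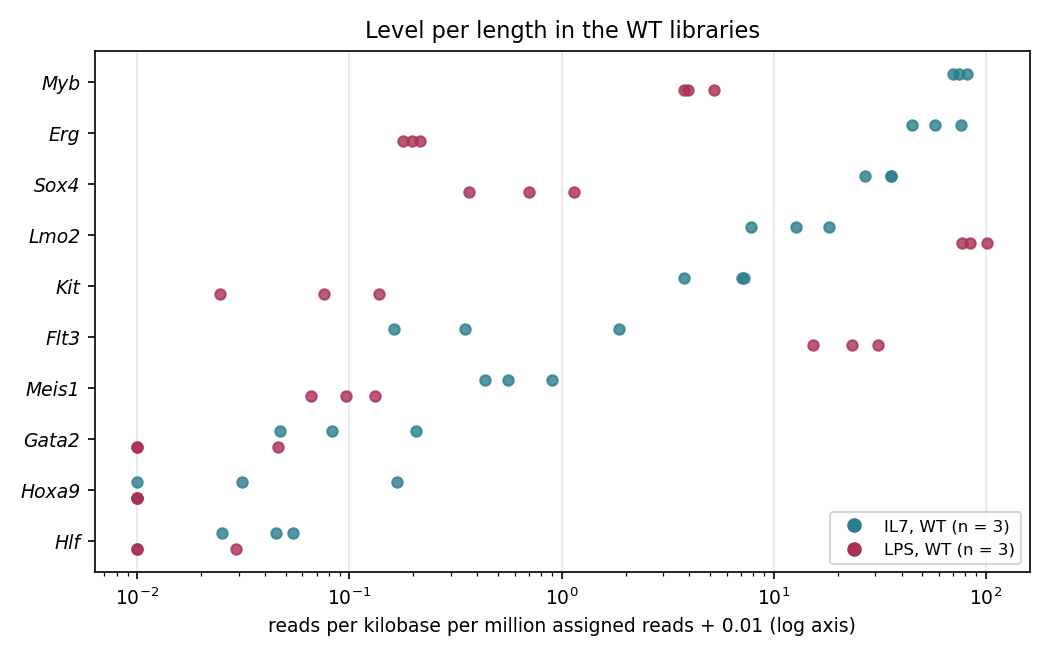
Level per length of the 10 genes in the WT libraries. The x axis is RPKM plus 0.01 on a log axis, each point is 1 library, and colours mark IL7 and LPS (n = 3 each). Lmo2 and Flt3 lie to the right in LPS, and Myb, Erg, Sox4, Kit and Meis1 lie to the right in IL7.

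Between the WT cultures Myb and Sox4 were higher in IL7 marrow cells and Lmo2 was higher in LPS splenic cells. These 3 members passed the filter on low counts in both cultures. Myb was 3.99 ± 0.19 higher in IL7 on the log2 scale (SE, limma, adjusted p = 4.64e-09) and Sox4 was 5.43 ± 0.50 higher (adjusted p = 1.14e-06). Lmo2 was 7.90-fold lower in IL7 than in LPS (log2 difference -2.98 ± 0.26, adjusted p = 6.89e-07). A call was common in this comparison, made for 56.5% of the 10767 genes that passed the filter in both cultures and for 58.5% of all 12184 tested, 29.7% higher and 28.8% lower in IL7. Tissue, maturity, stimulus and library batch cannot be told apart here, nor, in bulk RNA, can fewer cells of a type be told from less RNA per cell.

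Another 4 members passed the filter only through the culture in which they were high, so that a difference was built in and their values are a description. Erg, Kit and Meis1 were higher in IL7, by 7.90, 6.27 and 2.52 on the log2 scale, against LPS WT libraries with only 1 to 9 reads of each. Flt3 was lower in IL7, by a log2 difference of -5.66, against IL7 WT libraries with 21, 117 and 8 reads, and this value ran from -6.63 without IL7 WT 2 to -4.92 without IL7 WT 3. All 4 sizes depend on the prior count of 1.

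Kit (chr5:75574916-75656722, plus strand) was expressed in every IL7 library. It was at 312, 581 and 600 normalised reads in WT 1, 2 and 3 and at 599, 461 and 384 in T58A 1, 2 and 3. WT 1 was the lowest of the 6 libraries and its partner T58A 1 almost the highest, so the groups overlapped fully. With the pair as a block, the T58A difference was -0.01 ± 0.25 on the log2 scale (SE, adjusted p = 0.983). The pairs went different ways, by 0.94 in pair 1, -0.33 in pair 2 and -0.64 in pair 3, and without pair 1 Kit was lower in T58A by a log2 difference of -0.49 (adjusted p = 0.00396). In LPS libraries Kit had 3, 1 and 8 reads in WT and 1, 4 and 5 in T58A, too few to test. Kit is also a mast cell gene, and the mast cell and basophil markers summed to 2.00 to 8.72 RPM in IL7 WT and 0.596 to 1.43 in IL7 T58A libraries, with the mast cell protease genes Mcpt4, Cma1, Tpsb2 and Tpsab1 at 0 in all 6. The highest of these sums was in WT 3.

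Flt3 (chr5:147330741-147400489, minus strand) was uneven among the IL7 WT libraries. WT 1, 2 and 3 held 19.5, 106 and 8.81 normalised reads, from 21, 117 and 8 reads, and T58A 1, 2 and 3 held 5.38, 6.20 and 5.71, from 5, 6 and 6 reads. All 3 T58A libraries were below all 3 WT libraries, as were 10.8% of the 11604 genes tested in IL7, while WT 2 alone set most of the mean of 44.8 ± 53.3 (SD, n = 3) against 5.76 ± 0.414. Flt3 did not pass the filter on low counts in this culture. With no filter the difference was -2.04 ± 0.58 on the log2 scale (limma, adjusted p = 0.0544), which missed the threshold. The authors' deposited table lists a log2 fold change of -0.59 with an adjusted p of 0.00522. Deposited fold changes were also smaller in size for Hlf (0.05 against 0.71 with no filter) and Hoxa9 (-0.05 against -0.87), so these sizes are not alike. The WT library with the most Flt3 is the one with Y-linked reads and the highest Igj, and its 8 dendritic cell markers other than Flt3 summed to 10.4 RPM against 5.61 and 6.48 in WT 1 and 3. In T58A these markers summed to 2.30 to 7.36, and Batf3 was at 0 in all 6 IL7 libraries. The part of these cells in the Flt3 values was not tested.

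In the LPS libraries Flt3 was abundant, at 662, 1279 and 993 normalised reads in WT 1, 2 and 3. The T58A libraries held 930 in the first unnumbered, 1879 in the second unnumbered and 1033 in T58A 3. The groups overlapped, and the difference of 0.37 ± 0.31 on the log2 scale (SE) did not pass the test (limma, adjusted p = 1.00). With a block that puts the first unnumbered library in pair 1 the adjusted p was 0.145 and with the unnumbered libraries exchanged 1.00, and no label says which is right. The 2 unnumbered libraries are those whose column header gives the genotype but repeats the same number. The background in this culture was 0% of 11291 genes called by limma, with 284 at an unadjusted p under 0.05, 0 called by edgeR or limma-voom and 1 by DESeq2.

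**Figure D2:**
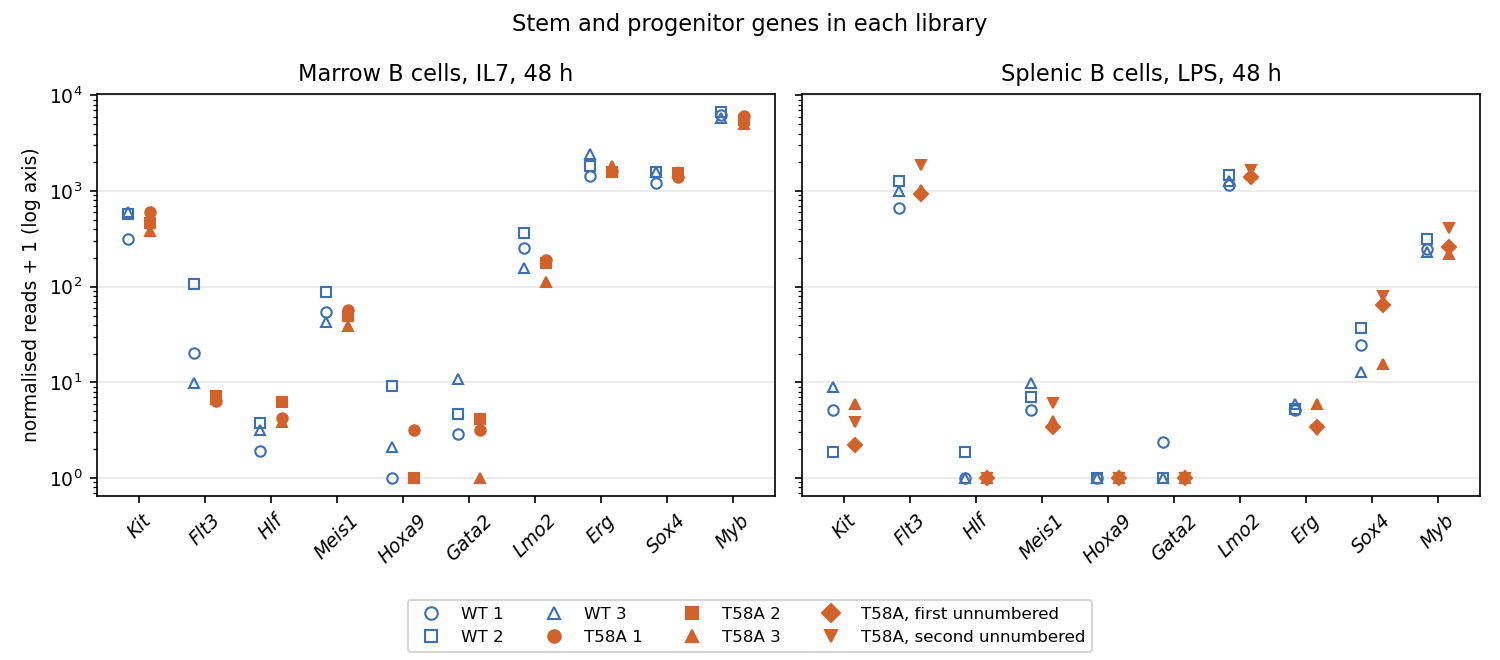
Normalised reads plus 1, on a log axis, of the 10 genes in each of the 12 libraries. Blue open symbols are WT and orange filled symbols T58A, and the symbol shape gives the library, with IL7 marrow cells on the left and LPS splenic cells on the right. In the left panel the Flt3 points of T58A sit together below all WT points, and WT 2 stands at 106.

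Lmo2 (chr2:103957986-103981878, plus strand) was the only member of the 6 tested in IL7 that passed the test. WT 1, 2 and 3 held 254, 366 and 157 normalised reads, and T58A 1, 2 and 3 held 188, 176 and 110. T58A was lower than its WT partner in 3 of 3 pairs, by log2 differences of -0.43, -1.05 and -0.51, although WT 3 was below T58A 1 and T58A 2, so the groups overlapped. The level fell to 0.631 of that in WT (log2 difference -0.67 ± 0.15 SE, limma with the pair as a block, adjusted p = 0.0243). The authors' deposited DESeq2 values list a log2 fold change of -0.52 with an adjusted p of 0.0204. In this fit 12.7% of the 11604 genes tested were called, 6.41% higher and 6.31% lower, so 1 of 6 members is near the background.

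The Lmo2 call rested on the pairing and on pair 2, which holds WT 2, the library with stray Y-linked reads, the highest Igj and the highest Lmo2. The part of these other reads in the Lmo2 values was not tested. Without the block its adjusted p was 0.330 by limma, 0.294 by edgeR, 0.191 by DESeq2 and 0.319 by limma-voom, and limma without the block called 0% of the 11604 genes (1960 at an unadjusted p under 0.05, 0 by edgeR or limma-voom and 309 by DESeq2). Without pair 2 the log2 difference was -0.47 (adjusted p = 0.122), without pair 1 -0.78 (adjusted p = 0.00249) and without pair 3 -0.74 (adjusted p = 0.0324). With sex as a further term, which leaves pair 3 alone to set the estimate, it was -0.51 (adjusted p = 0.529).

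Lmo2 and Flt3 were both higher in LPS splenic than in IL7 marrow cells. Like them, the sum of mature B cell markers was lower in T58A in each IL7 pair. The order of the WT libraries differed, with the marker sum highest in WT 1 and Lmo2 and Flt3 highest in WT 2. The 12 mature B cell markers include the MHC class II genes and the follicular B cell receptors Fcer2a and Cr2. Their sum was 4036, 2045 and 1100 RPM in IL7 WT 1, 2 and 3. In IL7 T58A 1, 2 and 3 it was 1735, 924 and 522. It was mostly Cd74 and the MHC class II genes. Fcer2a and Cr2 were low and did not fall in pair 1 (26.0 in WT against 34.4 in T58A and 50.1 against 52.7 normalised reads). The sum was lower in T58A in 3 of 3 pairs, and 10 of the 12 passed the test, all lower, where 6.31% of all genes were lower. The median log2 difference of the 12 was -1.07, against -0.01 over all genes tested. These markers were listed after the data had been seen. In LPS libraries the sum was 12709 to 14243 in WT and 13612 to 14785 in T58A. The 8 B lineage markers were also lower in T58A in the 3 IL7 pairs, as given above. The part of mature B cells, or of the B lineage share, in the Lmo2 and Flt3 values was not tested.

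**Figure D3:**
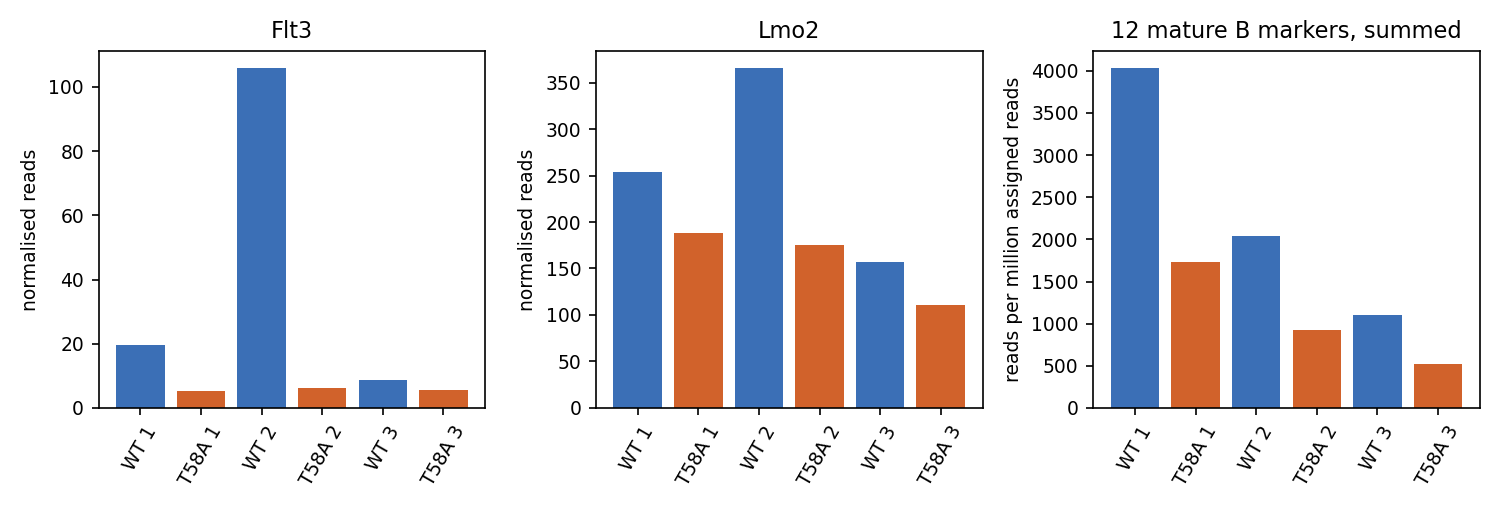
Flt3 and Lmo2 in normalised reads and the sum of 12 mature B cell markers in RPM, as bars for each IL7 library, pair by pair, with WT in blue and T58A in orange. In each of the 3 panels T58A is below its WT partner in 3 of 3 pairs, and the highest WT bar is WT 2 for Flt3 and Lmo2 and WT 1 for the marker sum.

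In the LPS libraries Lmo2 was at 1170, 1470 and 1259 normalised reads in WT 1, 2 and 3. The T58A libraries held 1419 in the first unnumbered, 1663 in the second unnumbered and 1518 in T58A 3, so the groups overlapped only between WT 2 and the first unnumbered library. The difference of 0.24 ± 0.15 on the log2 scale (SE) did not pass the test (adjusted p = 1.00, or 0.179 with the first unnumbered library in pair 1). Of the 4 members tested in LPS, 0 were called, and of all 10, 0 had T58A libraries wholly above or below the WT libraries, against 3.1% of genes above and 3.3% below.

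Erg (chr16:95359169-95586593, minus strand), an ETS factor, was among the most abundant members in IL7. It was at 1444, 1846 and 2464 normalised reads in WT 1, 2 and 3 and at 1621, 1588 and 1849 in T58A 1, 2 and 3. The T58A values lay inside the WT range, and the difference of -0.15 ± 0.10 on the log2 scale (SE) did not pass the test (adjusted p = 0.348). Pair 1 went up and the other two pairs down, and without pair 1 the log2 difference was -0.32 (adjusted p = 0.00869). In LPS libraries Erg had 3, 5 and 5 reads in WT and 2, 3 and 5 in T58A.

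Sox4 (chr13:28948919-28953713, minus strand), an SRY-related factor, was level between genotypes in IL7, at 1202, 1584 and 1592 normalised reads in WT 1, 2 and 3 and 1393, 1548 and 1570 in T58A 1, 2 and 3. The groups overlapped, and the difference was 0.05 ± 0.07 on the log2 scale (SE, adjusted p = 0.674). In LPS libraries Sox4 was low and uneven. WT 1, 2 and 3 held 23.4, 36.3 and 11.8 normalised reads, and the T58A libraries held 63.6 in the first unnumbered, 78.8 in the second unnumbered and 14.7 in T58A 3. Both unnumbered T58A libraries were above every WT library and T58A 3 was not, and the difference of 0.93 ± 0.63 (SE) did not pass the test (adjusted p = 1.00). It ran from 0.49 without the second unnumbered library to 1.76 with sex as a further term, was 1.66 without T58A 3 and 0.52 without WT 3, and had a lowest adjusted p of 0.0874 over the alternatives (limma-voom with the block named for Flt3). Sex moved with genotype in this culture too, and the part of sex in the Sox4 values was not tested beyond the fit with sex as a term, in which no member was called.

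Myb (chr10:21124935-21160984, minus strand), the factor of early progenitors and pro-B cells, was the most abundant member in IL7. It was at 6186, 6744 and 5808 normalised reads in WT 1, 2 and 3 and at 6055, 5578 and 5015 in T58A 1, 2 and 3. T58A was the lower in 3 of 3 pairs, the groups overlapped, and the difference of -0.17 ± 0.07 on the log2 scale (SE) did not pass the test (adjusted p = 0.133). Without pair 1 it was -0.24 (adjusted p = 0.0219). In LPS libraries Myb was at 247, 313 and 231 normalised reads in WT and at 259, 408 and 221 in the first unnumbered, the second unnumbered and the third T58A library, a difference of 0.13 ± 0.24 (SE, adjusted p = 1.00).

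Meis1 (chr11:18879817-19018985, minus strand), the cofactor of HOX proteins, was low but present in IL7, at 53.8, 87.0 and 41.8 normalised reads in WT 1, 2 and 3 and 55.9, 48.6 and 38.0 in T58A 1, 2 and 3. WT 2 was the highest and the groups overlapped (log2 difference -0.30 ± 0.23 SE, adjusted p = 0.417). In LPS libraries it had 3, 7 and 9 reads in WT and 2, 7 and 3 in T58A.

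The remaining 3 factors were at or near the limit of detection. Hoxa9 (chr6:52223100-52231089, minus strand) had 0, 9 and 1 reads in IL7 WT 1, 2 and 3 and 2, 0 and 0 in T58A, and 0 in all 6 LPS libraries. Gata2 (chr6:88193891-88207032, plus strand) had 2, 4 and 9 reads in IL7 WT and 2, 3 and 0 in T58A, and 1 read in all LPS libraries together. Hlf (chr11:90336536-90390895, minus strand), a PAR bZIP factor of blood stem cells, had 1, 3 and 2 reads in IL7 WT and 3, 5 and 3 in T58A. Its normalised T58A values were all above the WT values, as for 12.9% of genes tested in IL7, and at these counts no difference was detectable. With no filter 0 of these 3 genes passed (adjusted p = 0.423 for Hlf, 0.563 for Hoxa9 and 0.348 for Gata2).

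**Figure D4:**
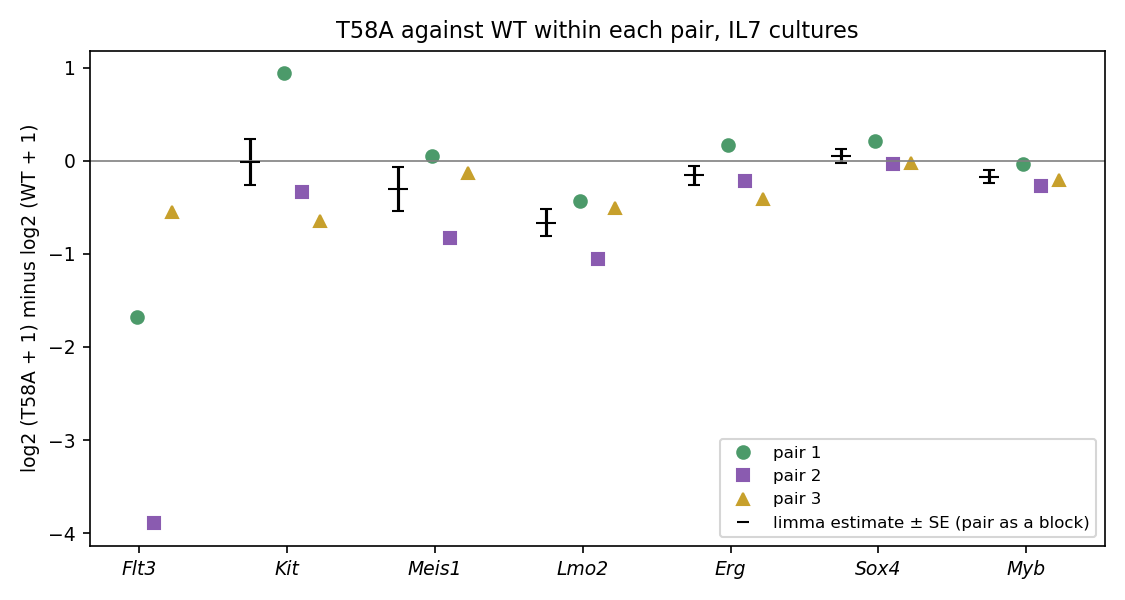
T58A minus WT within each IL7 pair, on log2 of normalised reads plus 1, for the 6 members tested and for Flt3, which has no estimate because it did not pass the filter. Coloured symbols are the 3 pairs and black marks the limma estimate ± SE with the pair as a block. For Lmo2 and Flt3 all 3 pairs are below 0, and for Kit pair 1 is at 0.94 while the other two are negative.

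The difference of the T58A effect between the cultures was tested over all 12 libraries on group means, without the pair as a block. With the pair as a block within IL7 limma also called 0 of the 12086 genes, with 696 at an unadjusted p under 0.05. Only Lmo2, Sox4 and Myb had enough reads in both cultures for this comparison, and 0 of the 3 passed, as did 0% of the 12086 genes tested (limma and edgeR, 541 and 578 at an unadjusted p under 0.05). The fit also took in Kit, Erg, Meis1 and Flt3, which passed the filter in 1 culture only, and 0 of the 7 members passed. The log2 difference of effects, IL7 minus LPS, was -0.91 ± 0.37 for Lmo2, -0.88 ± 0.70 for Sox4 and -0.30 ± 0.27 for Myb (SE, adjusted p = 0.995 for all 3). These contrasts share their WT libraries with the comparisons above.

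Of the 16 partners of the stem cell network and of the LMO2 complex, 15 were tested in IL7 and 0 were called, with a median log2 difference of -0.05 against -0.01 over all genes tested. Fli1, an ETS factor close to ERG, had the smallest p, at 957 ± 42.5 normalised reads in WT and 805 ± 59.99 in T58A (SD, n = 3; log2 difference -0.25 ± 0.08 SE, adjusted p = 0.0782). Between the WT cultures Runx1 was 1.41 higher in IL7 on the log2 scale (adjusted p = 2.46e-07) and Tcf3, which encodes the E proteins E12 and E47, 1.56 higher (adjusted p = 2.67e-07), while 58.5% of all genes differed. Both were named after their values had been seen. Of the 15 list genes tested there, 10 were higher in IL7 and 2 lower, where 29.7% of all genes were higher and 28.8% lower. Fli1 was lower in IL7 (-0.73, limma, adjusted p = 9.14e-05), and so was Lmo2 itself. Only 13 list genes passed the filter in LPS, so for those past it in IL7 alone a difference was built in.

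Of 21 HOX, MEIS and PBX genes and their regulators, 11 were tested in IL7 and 1 was called, which is near the 12.7% called over all genes. Dot1l, the histone methyltransferase that acts with MLL proteins at HOX genes, rose from 1620 ± 127 to 2081 ± 14.1 normalised reads (SD, n = 3; log2 difference 0.36 ± 0.07 SE, adjusted p = 0.0158). Of the 17 family relatives 10 were tested, and 1 was higher and 2 lower, against the same 12.7%. Sox12, of the same SOX group as Sox4, rose from 265 ± 40.3 to 429 ± 48.9 (0.70 ± 0.13, adjusted p = 0.0141). Every T58A library was above every WT library, as for 12.9% of genes tested in IL7. Lmo4, a relative of Lmo2, fell (-0.37 ± 0.10, adjusted p = 0.0412), as did Tef, a PAR bZIP relative of Hlf (-0.39 ± 0.11, adjusted p = 0.0478).

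The genes that carry signals from KIT and FLT3 were called higher in 2 and lower in 6 of 23 tested in IL7, with a median log2 difference of -0.21, where 6.41% of all genes were higher and 6.31% lower. Flt3l, the ligand of FLT3, was at 181, 112 and 68.3 normalised reads in WT 1, 2 and 3 and at 95.7, 65.1 and 38.0 in T58A 1, 2 and 3, lower in 3 of 3 pairs (-0.84 ± 0.16 SE, adjusted p = 0.0152). The kinase gene Fyn fell from 1116 ± 78.2 to 894 ± 55.9 (SD, n = 3; adjusted p = 0.0271), and Ptpn6, which encodes the inhibitory phosphatase SHP-1, from 2537 ± 1300 to 1560 ± 277 (adjusted p = 0.0277). The others lower were Lyn (-0.47, adjusted p = 0.0314), Pik3cd (-0.24, adjusted p = 0.0413) and Cblb (-0.42, adjusted p = 0.0485), named after their values had been seen. Cbl, which marks activated KIT and FLT3 for degradation, rose from 437 ± 128 to 727 ± 11.98 (0.77 ± 0.14 SE, adjusted p = 0.0131), and Ptpn11, which encodes the activating phosphatase SHP-2, rose by 0.29 ± 0.06 (adjusted p = 0.0255). Without pair 1, 2 or 3 this list had 2, 1 and 1 higher and 5, 2 and 4 lower. Of all 11604 genes those fits called 1425, 774 and 915, against 1476 with all pairs. Kitl, the ligand of KIT, did not pass the filter in either culture.

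Among 14 other stem and progenitor genes tested in IL7, 2 were higher and 1 lower, against 12.7% of all genes called. Prdm16, a stem cell factor, was at 28.8, 68.8 and 46.2 normalised reads in WT 1, 2 and 3 and at 118, 102 and 92.3 in T58A 1, 2 and 3 (1.18 ± 0.27 SE, adjusted p = 0.0264). Every T58A library was above every WT library, as for 12.9% of genes tested in IL7. Igf2bp3, an RNA-binding protein of fetal progenitors, rose from 84.2 ± 27.6 to 145 ± 19.6 (SD, n = 3; adjusted p = 0.0253). Egr1, an immediate early factor also expressed in stem cells, fell from 291 ± 137 to 129 ± 42.9 (-1.11 ± 0.20 SE, adjusted p = 0.0135).

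Of 16 other progenitor receptors and surface proteins tested, 0 were higher and 3 lower, with a median of -0.33, where 6.41% of all genes were higher and 6.31% lower. Ly6d, a surface marker of B-committed progenitors, fell from 3240 ± 2029 to 1321 ± 405 normalised reads (SD, n = 3; log2 difference -1.17 ± 0.14 SE, adjusted p = 0.00395). Csf2ra, a GM-CSF receptor chain, fell by 0.57 on the log2 scale (adjusted p = 0.0109), and Crlf2, the TSLP receptor chain, by 0.55 (adjusted p = 0.0324). Without pair 1, 2 or 3 the list had 4, 2 and 3 lower. Of all 11604 genes 735, 429 and 525 were lower in those fits, against 732 with all pairs.

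Of 13 cofactors and pro-B targets of MYB, 1 was higher and 3 were lower, against 6.41% and 6.31% of all genes. Rag1, a recombinase gene, was at 3045, 2293 and 2000 normalised reads in WT 1, 2 and 3 and at 1940, 1255 and 1126 in T58A 1, 2 and 3 (-0.78 ± 0.07 SE, adjusted p = 0.00219). Rag2 fell from 528 ± 103 to 305 ± 113 (SD, n = 3; adjusted p = 0.0135) and Cd53, a tetraspanin, from 2817 ± 644 to 1894 ± 401 (adjusted p = 0.00398). Mybbp1a, a nucleolar MYB-binding protein, rose from 6709 ± 974 to 9575 ± 673 (adjusted p = 0.00555). Every T58A library was above every WT library, as for 12.9% of genes tested in IL7. The sum of the mature B cell markers described above was lower in the same T58A libraries as Ly6d, Cd53 and Rag1. Between the WT cultures Ly6d and Cd53 were lower in IL7 than in LPS (limma, log2 differences -1.53 and -1.68). Rag1 went the other way, with a mean of 2446 normalised reads in IL7 WT and 2.45 in LPS WT libraries. The part of mature B cells in these values was not tested.

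In IL7 the 22 called genes named in these lists kept their sign with sex as a further term and without pair 1, 2 or 3. The limma fit without the block gives the same log2 differences as the main fit, so there the sign could not change. Without the block 0 of them were called by limma, and with sex as a further term 1, Rag1. Without pair 1, 2 or 3, 18, 15 and 17 of the 22 were called, and 8 lost the call without at least 1 pair (Lmo4, Tef, Crlf2, Ptpn11, Fyn, Lyn, Pik3cd and Cblb). In LPS limma, with or without a block, called 0 genes of these lists. DESeq2 with a block that puts the first unnumbered T58A library in pair 1 called 1 gene each of the signalling, surface protein and MYB lists and 2 other stem and progenitor genes. That fit called 219 of the 6475 genes to which it gave an adjusted p. With the same block edgeR and limma-voom called 0 genes of these lists, and 39 and 67 of all 11291 genes.

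**Figure D5:**
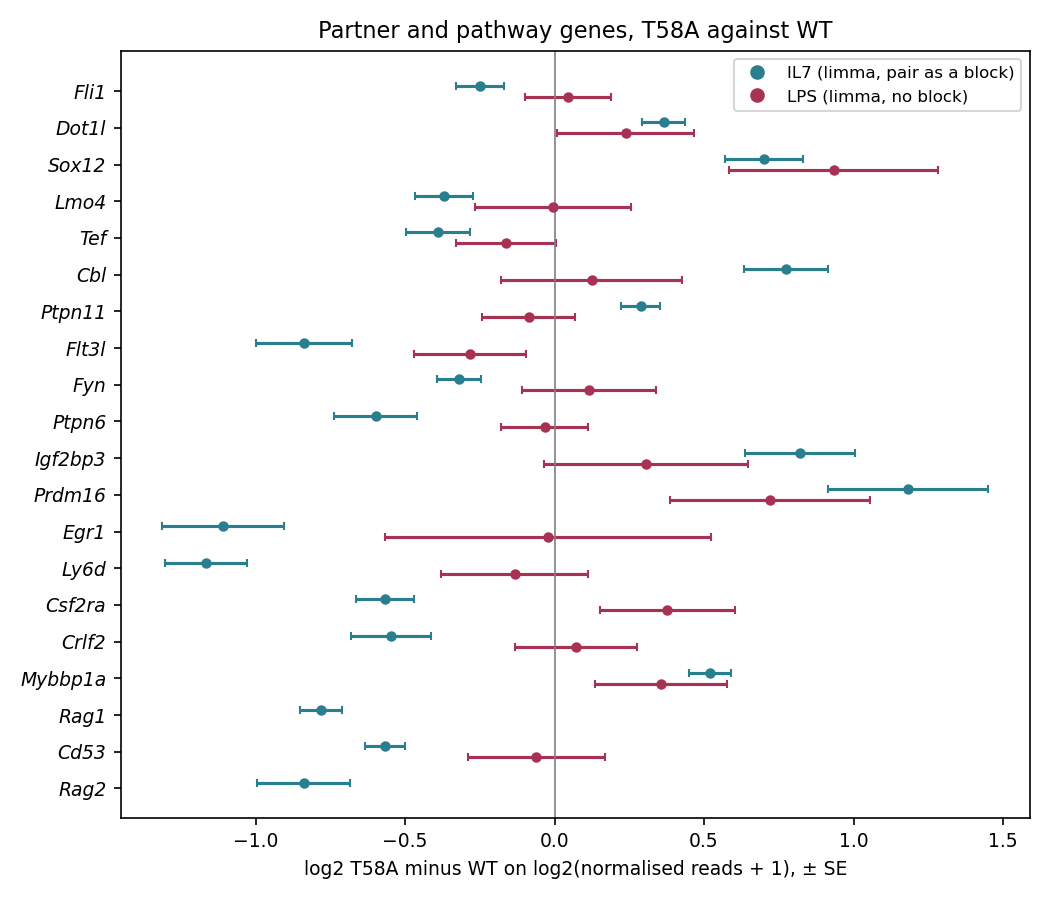
T58A minus WT for the partner and pathway genes named here, except Lyn, Pik3cd, Cblb, Kitl, Runx1 and Tcf3. Values are limma estimates ± SE on log2 of normalised reads plus 1, for IL7 (pair as a block) and LPS (no block). Rag1 and Rag2 have no LPS estimate because they did not pass the filter there. In IL7 Prdm16 is highest at 1.18 and Ly6d lowest at -1.17.

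Between the WT cultures, where 58.5% of all genes differed, Mybbp1a was 1.21 higher in IL7 on the log2 scale (adjusted p = 1.27e-04) and Cd53 lower by a log2 difference of -1.68 (adjusted p = 3.09e-05). Rag1 and Rag2 were at 2.45 ± 2.64 and 0.288 ± 0.499 normalised reads in LPS WT libraries (SD, n = 3), too few to pass the filter there. Flt3l was lower in IL7 than in LPS (-1.41, adjusted p = 0.00312), in the same direction as Flt3.

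Finally, the genes whose pattern was most like that of the members were found over the 12 libraries on log2 values centred within each culture, among 8792 genes. Lmo2 was most like AI848285 (Pearson r = 0.92) and Traf1 (r = 0.92), Sox4 like Psrc1 (r = 0.98) and Bst1 (r = 0.96), and Myb like Nfat5 (r = 0.96) and Pcnx (r = 0.96). These coefficients describe the 12 libraries, which share depth and pair, and carry no test.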

How the data were processed

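RNA was sequenced from 12 libraries. Per the submitters' processing notes, bcl2fastq 1.8.4, TopHat2 2.1.0, mm10, HTSeq 0.6.1 and DESeq2 (version not stated) were used; the annotation release is not given in the sources used here. The authors deposited signal values (reads over 1 size factor per library, judged from the values), log2 fold changes and p-values. Whole reads were recovered for 100% of values within 0.001. The TruSeq kit named in the labels does not mark strand, so antisense reads cannot be told apart. No label ties a library to an animal. Each culture's WT group held both sexes by Xist and Y-linked reads, so its spread is not purely technical. Every T58A library read as male, so spread within that genotype may be technical only. How far the p-values reflect technical spread was not tested.

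Genes past filterByExpr (edgeR 4.0.16, minimum count 10, minimum total 15) were tested with limma 3.58.1 in R 4.3.3 on log2 of the value plus 1, at a Benjamini-Hochberg adjusted p under 0.05, with the pair as a block in IL7 and no block in LPS, where the header T58A2 stands over 2 columns. Same-numbered IL7 libraries deviated together (r = 0.41, 0.15 and 0.40), as the paired titles imply. The WT cultures were compared on log2 CPM (TMM, prior count 1), and neither this fit nor that of the difference of effects had a block. DESeq2 1.42.0, edgeR and limma-voom were alternatives, and the tests were tested on simulated counts. The members, lists and alternatives were chosen with earlier results of these data known. From each list the genes past the IL7 test were named, at most 3 per direction, or else the gene with the smallest p. Locations, strand and exon length came from GENCODE M21 on GRCm38, with 22716 of 24015 symbols matched, and promoter windows from RefSeq. Figures used matplotlib 3.10.9 in Python 3.11.15.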

Additional observations from a re-analysis of the deposited data

How the results depend on the processing

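The count of genes called in IL7 was 1476 with the pair as a block. It was 0 with no replicate block by limma, edgeR or limma-voom and 309 by DESeq2, 42 with sex as a further term, and 774 to 1425 without 1 pair; the 774 was without pair 2 and 915 without pair 3. Scaling by library total gave 576 higher and 867 lower, against 744 and 732. In LPS 0 genes were called by limma, 1 by DESeq2, 1 with sex as a further term and 0 to 4 without 1 library (4 without WT 3, 1 without T58A 3). With a replicate block that puts the first unnumbered T58A library in pair 1, limma called 4, edgeR 39, limma-voom 67 and DESeq2 219, and with the unnumbered libraries exchanged limma called 0. Except in limma, the fits without the block in IL7 and with it in LPS were chosen after seeing the data. In that culture WT 1 deviated with the first unnumbered library (r = 0.34), WT 2 with the second (r = 0.66) and WT 3 with T58A 3 (r = 0.54). The difference between the cultures had 0 to 3 calls without 1 library (3 without IL7 WT 3, 1 without IL7 T58A 2). Of the members, Lmo2 in IL7 lost its call in 6 alternatives, given above. In IL7 the Kit log2 difference ran from -0.49 to 0.30 without 1 pair and turned positive without pair 2 (0.15) or pair 3, and that of Sox4 ran from -0.027 without pair 1 to 0.096 and was -0.020 with sex as a further term. In LPS Myb ran from -0.13, without the second unnumbered library, to 0.31. The Kit difference of effects, which rests on 1 to 8 reads of Kit in each LPS library, ran from -0.27 without LPS WT 3 to 0.86. It was negative also without IL7 WT 1 (-0.07) or the first unnumbered LPS library (-0.13). The cause of these changes was not tested. All 119 alternative values for the WT cultures kept direction and call, those of Erg, Kit, Meis1 and Flt3 in part because of the filter, as did 89 of 102 in IL7, 83 of 84 in LPS and 119 of 122 for the difference of effects. Scaling by library total moved the median of all genes between the WT cultures from 0.03 to 0.16 on the log2 scale. Depth leaves Hlf, Hoxa9 and Gata2 untestable in both cultures, Flt3 in IL7, and Kit, Erg and Meis1 in LPS.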
